A study of Mus musculus with 6 samples.

Results

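The genes of 10 neutrophil granule proteins were followed on 6 arrays, out of 37069 gene names measured. They were picked by name, and read by 12 probes out of 56591. Mpo, Elane, Prtn3, Ctsg and Prss57 stand for the azurophil granule, and Camp, Ltf, Ngp, Lcn2 and Retnlg stand for later stages of the neutrophil. The choice was made with the difference between these 6 arrays known, so the members' own differences are given as a description, with a standard error and no test.

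A neutrophil loads its granules in the order in which it matures. The promyelocyte makes the azurophil granule with myeloperoxidase and the elastase family of serine proteases, the myelocyte and metamyelocyte make the specific granule with lactoferrin, cathelicidin and lipocalin 2, and gelatinase granules and secretory vesicles follow in the band and segmented cell. A protein is sorted largely by when its gene is transcribed, so that the set of granule transcripts in bone marrow reads as a record of stage.

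The cells were bone marrow cells of Ano1fl/fl mice, whose Ano1 gene carries loxP sites, and of Ctsk-Cre;Ano1fl/fl littermates, which carry the same floxed alleles and Cre under the promoter of cathepsin K, a protease of osteoclasts. Ano1 codes for anoctamin 1, a chloride channel gated by calcium, and the comparison asks how its loss in osteoclasts changes their transcripts. The marrow came from mice of 6 to 8 weeks in the culture method of the study. After 1 day in M-CSF, the cells that did not attach were given 30 ng/ml of M-CSF with 50 ng/ml of RANKL, the cytokine that makes osteoclasts, and all 6 cultures had 5 days of RANKL. Each group held 3 arrays, from 3 mice per group by the study's methods, and the methods describe no sort for granulocytes before the RNA was extracted. In such bulk RNA, fewer cells of a type and less RNA per cell cannot be told apart.

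Of 59305 transcript spots on each array, 33480 to 34951 were well above background and 0 were saturated. The 6 arrays lay on 1 slide read in 1 scan. The correlation of log2 signals across 20645 genes was 0.995 to 0.997 for pairs of one group and 0.947 to 0.951 for pairs across groups, a description across genes, which are not replicates. The Ano1 probe had processed signals of 3.22 to 3.91 and passed the background test on 0 of 6 arrays, so the deletion could not be checked here and every direction below rests on the labels. At an adjusted p under 0.05, limma called 23.4% of the 20645 tested genes higher in Ctsk-Cre;Ano1fl/fl and 29% lower. Of 14 osteoclast markers, 13 were called higher in Ctsk-Cre;Ano1fl/fl and 1 was called lower. Their summed signal was 565509 to 628260 there against 226620 to 243099 on the Ano1fl/fl arrays. Of 14 tested stromal markers, 11 were called higher and 2 lower, with summed signals of 84240 to 123376 against 22655 to 25034. Higher osteoclast markers under this label run opposite to the direction the study describes for osteoclast genes in this knockout, and whether the labels are right was not tested. The part of osteoclast or stromal cells in the granule gene values below was not tested. S100a8, S100a9, Csf3r, Cxcr2 and Ly6g, named here as markers of neutrophils, were well above background on all 6 arrays. Whether their RNA came from neutrophils was not tested.

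All 10 members matched a RefSeq gene by symbol and transcript accession, and 9 had a promoter entry in RefSeq's GRCm38.p6 annotation. The 250 bases before the start of the gene are shown for members of each stage, so that matches to short myeloid motifs can be read in them. In the azurophil windows the capitals mark GAGGAA or its reverse complement TTCCTC, letters of the kind bound by PU.1, the ETS factor of myeloid cells.
Mpo promoter, chr11:87793534-87793783, plus strand: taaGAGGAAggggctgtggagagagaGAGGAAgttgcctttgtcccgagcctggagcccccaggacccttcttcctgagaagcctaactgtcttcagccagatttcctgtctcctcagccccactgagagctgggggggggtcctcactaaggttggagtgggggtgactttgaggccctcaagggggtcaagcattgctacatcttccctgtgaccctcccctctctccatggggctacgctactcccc
Elane promoter, chr10:79886062-79886311, plus strand: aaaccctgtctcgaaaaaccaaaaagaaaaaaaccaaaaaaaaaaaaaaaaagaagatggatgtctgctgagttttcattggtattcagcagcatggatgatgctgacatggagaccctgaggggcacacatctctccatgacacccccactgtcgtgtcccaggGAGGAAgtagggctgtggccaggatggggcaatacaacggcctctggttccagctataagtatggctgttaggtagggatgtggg
Prtn3 promoter, chr10:79879417-79879666, plus strand: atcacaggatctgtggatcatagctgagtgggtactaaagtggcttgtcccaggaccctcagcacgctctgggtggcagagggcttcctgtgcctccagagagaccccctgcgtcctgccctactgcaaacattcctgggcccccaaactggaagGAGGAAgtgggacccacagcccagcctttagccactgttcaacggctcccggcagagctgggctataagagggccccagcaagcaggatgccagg
Ctsg promoter, chr14:56102575-56102824, minus strand: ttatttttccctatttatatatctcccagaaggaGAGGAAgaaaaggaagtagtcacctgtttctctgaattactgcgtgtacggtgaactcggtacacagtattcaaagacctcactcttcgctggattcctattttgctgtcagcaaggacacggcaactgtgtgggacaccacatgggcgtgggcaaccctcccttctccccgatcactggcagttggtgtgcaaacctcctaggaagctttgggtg
GAGGAA on either strand was in all 4 of these windows, in 2 of 5 windows of the later members (Ltf and Lcn2) and in 23.3% of 32851 mouse promoter windows. In Elane and Prtn3, which lie side by side on chromosome 10, the match began at position -85 and -95, counted back from the start.

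In the windows of later members the capitals mark TTGCNNAA on either strand, letters of the kind bound by C/EBP factors, which act across granulocyte maturation.
Ngp promoter, chr9:110419558-110419807, plus strand: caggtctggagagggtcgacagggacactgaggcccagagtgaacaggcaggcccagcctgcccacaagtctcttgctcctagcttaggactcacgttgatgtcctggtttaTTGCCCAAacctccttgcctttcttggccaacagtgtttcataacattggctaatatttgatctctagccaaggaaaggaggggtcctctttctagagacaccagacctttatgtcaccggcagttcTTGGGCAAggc
Ltf promoter, chr9:111019042-111019291, plus strand: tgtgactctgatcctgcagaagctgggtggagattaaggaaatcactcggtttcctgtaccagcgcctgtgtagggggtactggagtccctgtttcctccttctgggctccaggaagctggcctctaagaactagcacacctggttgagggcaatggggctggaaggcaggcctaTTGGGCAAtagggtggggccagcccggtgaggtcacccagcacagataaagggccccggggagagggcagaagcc
Lcn2 promoter, chr2:32387740-32387989, minus strand: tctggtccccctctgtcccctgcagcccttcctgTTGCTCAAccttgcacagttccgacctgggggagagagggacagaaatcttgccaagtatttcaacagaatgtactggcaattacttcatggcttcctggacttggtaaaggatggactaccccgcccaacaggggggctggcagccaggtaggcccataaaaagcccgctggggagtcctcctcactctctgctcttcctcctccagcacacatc
Retnlg promoter, chr16:48872358-48872607, plus strand: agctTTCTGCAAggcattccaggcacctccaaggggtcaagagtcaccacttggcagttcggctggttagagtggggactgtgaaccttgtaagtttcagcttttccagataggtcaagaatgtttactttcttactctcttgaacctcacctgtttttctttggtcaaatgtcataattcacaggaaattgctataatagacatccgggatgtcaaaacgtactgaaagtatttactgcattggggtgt
TTGCNNAA was in these 4 of 5 later windows (not in Camp), in 0 of 4 azurophil windows and in 9.56% of all windows. Of 3 other motifs searched on both strands, AACNGNC (MYB) was in 3 azurophil and 2 later windows and in 27.7% of all, TGNGGT (RUNX) was in 1 and 2 and in 40.1% of all, and AAATCNC (GFI1) was in 0 and 1 and in 10.3% of all. No 2 matches overlapped in a member window. A match is only a match of letters, and its absence says only that these letters are not in this window.

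The arrays read each transcript with probes of 60 bases, and 4 of the 12 member probes span more than 60 bases of the mm9 genome used by the array files, which places them across a splice junction. The probes below are 3 of these, 1 with its gene lower, 1 near its control level and 1 higher on the Ctsk-Cre;Ano1fl/fl arrays, and are shown because they read spliced RNA.
Prtn3 probe, chr10:79343869-79344685, plus strand: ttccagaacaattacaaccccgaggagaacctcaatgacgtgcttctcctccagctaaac
Ngp probe, chr9:110324266-110324814, plus strand: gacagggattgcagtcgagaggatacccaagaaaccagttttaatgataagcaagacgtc
Lcn2 probe, chr2:32241037-32241281, minus strand: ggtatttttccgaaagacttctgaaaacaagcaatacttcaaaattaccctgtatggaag
They spanned 817 bases at Prtn3, 549 at Ngp and 245 at Lcn2, and each had at least 1 reading frame with no stop codon. The remaining one was the brighter Mpo probe, over 776 bases.

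The azurophil genes were 9.52-fold to 12.5-fold lower on the Ctsk-Cre;Ano1fl/fl arrays than on the Ano1fl/fl arrays, the upper end being Prss57, which was well above background on 2 of 3 Ctsk-Cre;Ano1fl/fl arrays. Their median difference in mean log2 signal, Ctsk-Cre;Ano1fl/fl minus Ano1fl/fl as throughout, was -3.41 (range -3.65 to -3.25, 5 genes), where the median over all 20645 tested genes was -0.06. All 5 were more than 8-fold lower, as were 0.252% of tested genes (52), and their groups did not overlap, as was so for 64% of tested genes. With normexp background correction or the deposited table, the difference of Prss57 was -1.77 or -2.29, short of 8-fold. Since these differences chose the genes, nothing is read from that count. Summed over the 5 genes, the linear signal was 120008 to 132880 in Ano1fl/fl and 8146 to 15545 in Ctsk-Cre;Ano1fl/fl.

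Mpo, the haem peroxidase that makes hypochlorous acid, is the classic content of this granule. Its brighter probe (A_51_P317460, chr11:87617102-87617877, mm9) read 16.04, 16.01 and 16.05 log2 units in Ano1fl/fl and 12.90, 11.98 and 13.01 in Ctsk-Cre;Ano1fl/fl. The control values lay within 0.04 log2 units of each other, and the second array of the other group was the lowest. The difference was -3.41 (standard error 0.29), 10.6-fold lower. The second probe (A_55_P2066505, chr11:87615121-87615180) read 12.90, 12.95 and 12.95 against 10.02, 8.72 and 9.81. It gave the same size of difference, -3.41 (standard error 0.37), with the same array lowest.

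Elane, Prtn3 and Ctsg code for neutrophil elastase, proteinase 3 and cathepsin G, serine proteases that are trimmed to their active form by cathepsin C. Elane (chr10:79350902-79350961) read 14.40, 14.76 and 14.67 log2 units in Ano1fl/fl and 11.62, 10.87 and 11.59 in Ctsk-Cre;Ano1fl/fl, a difference of -3.25 (standard error 0.24). Prtn3 (chr10:79343869-79344685) read 11.15, 11.62 and 11.45 against 8.31, 7.19 and 8.34, a difference of -3.46 (standard error 0.36). For all these proteases every control array was above every array of the other group. Ctsg (chr14:56718795-56718854) read 14.79, 15.08 and 15.13 against 11.87, 11.01 and 11.93, a difference of -3.40 (standard error 0.28).

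Prss57 codes for neutrophil serine protease 4, another protease of the azurophil granule. It (chr10:79244220-79244279) read 7.63, 7.77 and 7.83 log2 units against 4.58, 3.46 and 4.25, a difference of -3.65 (standard error 0.31). On the Ctsk-Cre;Ano1fl/fl arrays it was well above background on 2 of 3, with processed signals of 25.6, 9.72 and 18.1. As given above, this size depended on the treatment of background (normexp used an offset of 50, and the deposited table holds spot medians).

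**Figure D1:**
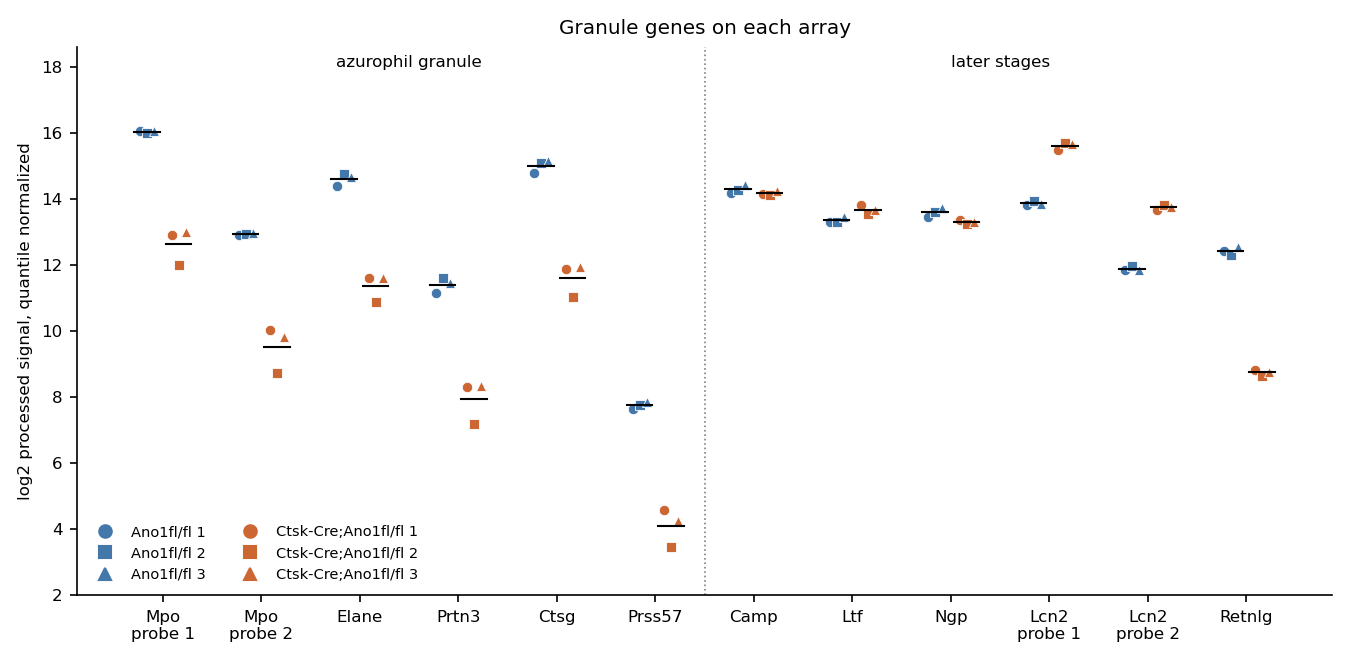
Log2 processed signal after quantile normalization (y axis) of the 12 member probes (x axis) on each of 6 arrays. Blue marks are the 3 Ano1fl/fl arrays and orange marks the 3 Ctsk-Cre;Ano1fl/fl arrays, with a shape for each array number and a black line at each group mean. The azurophil probes lie lower in orange, with differences of -3.65 to -3.25,, with the square, array 2, lowest. Camp, Ltf and Ngp lie close in both groups, Lcn2 lies higher and Retnlg lower. Heights of different probes are not comparable.

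The later members did not share a direction. Their median difference was -0.12, with a range from -3.68 to 1.75 over 5 genes, and 1 was more than 2-fold lower (7.38% of all tested genes were) and 1 more than 2-fold higher (9.96% were).

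Camp, Ltf and Ngp are made in the myelocyte and stored in the specific granule: the cathelicidin precursor, the iron binding protein lactoferrin, and neutrophilic granule protein, a cystatin-like protein. Camp (chr9:109749911-109749970) read 14.17, 14.28 and 14.43 log2 units in Ano1fl/fl and 14.14, 14.13 and 14.23 in Ctsk-Cre;Ano1fl/fl. The groups overlapped, and the difference was -0.12 (standard error 0.08). Ltf (chr9:110942873-110942932) read 13.31, 13.29 and 13.44 against 13.81, 13.55 and 13.66, a difference of 0.33 (standard error 0.08). Ngp (chr9:110324266-110324814) read 13.45, 13.60 and 13.72 against 13.35, 13.23 and 13.29, a difference of -0.30 (standard error 0.08). The groups of Ltf and Ngp lay apart but close, each within 1.3-fold, and without normalization between the arrays the differences were 0.05 for Ltf, -0.57 for Ngp and -0.41 for Camp, where the median of all genes was -0.30.

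Lcn2 codes for lipocalin 2, which withholds iron from bacteria by binding their siderophores, and is also made by macrophages and epithelia. Its brighter probe (A_55_P2070869, chr2:32240199-32240258) read 13.82, 13.94 and 13.84 log2 units in Ano1fl/fl and 15.47, 15.70 and 15.66 in Ctsk-Cre;Ano1fl/fl. The probe across a junction (A_51_P510156, chr2:32241037-32241281) read 11.86, 11.97 and 11.84 against 13.67, 13.82 and 13.77. Both put all 3 Ctsk-Cre;Ano1fl/fl arrays above all controls, by 1.75 (standard error 0.07) and 1.86 (standard error 0.06), and the brighter one was 3.35-fold higher.

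Retnlg, which codes for resistin-like gamma, a secreted protein of maturing neutrophils, was the later member furthest below its control level. Its probe (chr16:48874468-48874527) read 12.43, 12.31 and 12.53 log2 units in Ano1fl/fl and 8.83, 8.65 and 8.76 in Ctsk-Cre;Ano1fl/fl. The arrays of each group lay within 0.22 log2 units of each other. The difference of -3.68 (standard error 0.08), 12.8-fold lower, was close to that of Prss57, and which was larger changed with the array left out. Ordered by their difference among 20645 genes, Retnlg was 16th from the lowest, Prss57 17th, Prtn3 21st, Mpo 24th, Ctsg 25th and Elane 35th, while Ngp was at place 6366, Camp at 9177, Ltf at 15906 and Lcn2 at 19350. The place of Prss57 rests on a difference that was smaller under the other background treatments.

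**Figure D2:**
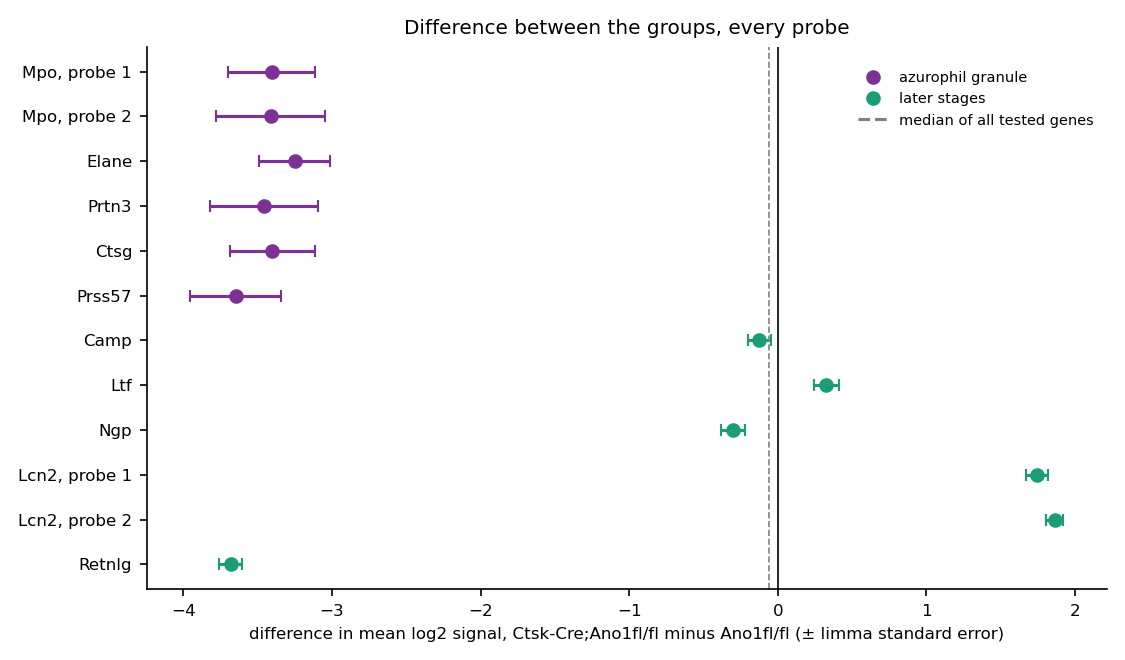
Difference in mean log2 signal between the groups (x axis, Ctsk-Cre;Ano1fl/fl minus Ano1fl/fl) for every member probe (y axis). Points are differences of 3 against 3 arrays, bars are 1 standard error from limma, purple marks azurophil genes, green marks later genes, and the dashed line is the median of all tested genes at -0.06. The 6 azurophil probes sit between -3.65 and -3.25, and the later probes spread from -3.68 at Retnlg to 1.86 at Lcn2.

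The arrays of one group also differed in the azurophil genes. This is a description, since the genes were chosen on these arrays and a low array adds to the difference that chose them. On the Ctsk-Cre;Ano1fl/fl arrays, array 2 was the lowest for 5 of 5 azurophil genes, and their range over the 3 arrays had a median of 1.02 log2 units (0.74 to 1.15). Over all tested genes the median range was 0.24, and array 2 was the lowest for 32.5%. Array 2 lay more than 0.5 log2 units below both other arrays for all 5 azurophil genes, for 0 of 5 later genes and for 3.48% of tested genes (a size chosen after the values were seen). Among the 12 other promyelocyte genes, Ms4a3, Fcnb, Nkg7 and Clec11a also met it. The later genes ranged over 0.18 log2 units in the median on those arrays, with array 2 lowest for 4 of 5.

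On the Ano1fl/fl arrays the azurophil genes ranged over 0.34 log2 units in the median, and array 1 was the lowest for 4 of 5. Averaged over the 5 genes as a median and set against the control mean, the Ctsk-Cre;Ano1fl/fl arrays stood at -3.14, -4.05 and -3.06, and the later genes stood at -0.15, -0.16 and -0.06. Without array 2 of that group the azurophil median was -3.08 in place of -3.41. Markers of progenitors had summed signals of 35258 to 47372 in Ctsk-Cre;Ano1fl/fl and 96150 to 102421 in Ano1fl/fl, sums in which the bright Ly6a weighs most, and a median difference of -0.36 over 11 genes. Array 2 lay more than 0.5 log2 units below both others for 3 of 11 progenitor genes, Flt3 and Ly6a among them. Of these 11, 5 were called lower and 0 higher (45.5%, where 52.4% of all tested genes were called and 29% were lower), and Kit (-0.39) and Flt3 (-0.35), which define early progenitors, were not called. The part of progenitors in the azurophil values was not tested.

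**Figure D3:**
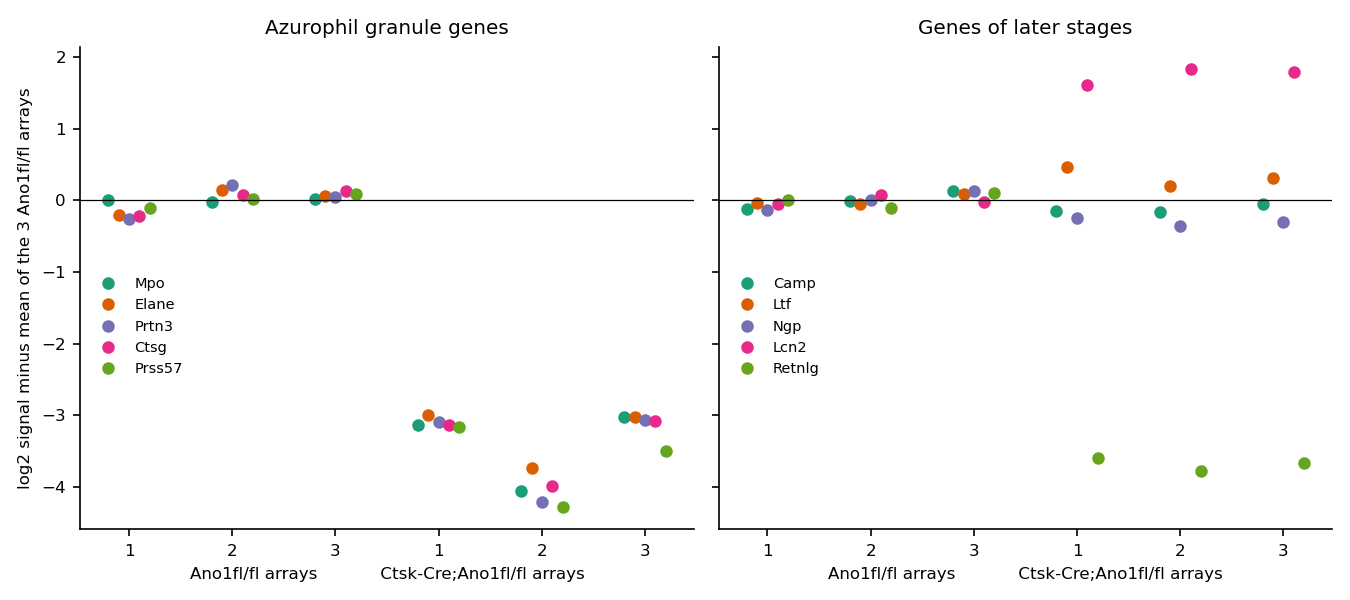
Log2 signal minus the mean of the 3 Ano1fl/fl arrays (y axis) for the brightest probe of each member on each array (x axis), azurophil genes on the left and later genes on the right, 1 colour per gene. The 5 azurophil genes lie together on every array and about 1 log2 unit lower on Ctsk-Cre;Ano1fl/fl array 2 than on the other 2, while later genes keep their own levels on all 3.

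The other genes of each stage were taken from lists of known granule and lineage genes and were tested with limma over all 20645 genes, where 52.4% of genes were called at an adjusted p under 0.05, 29% lower and 23.4% higher. Over the 6 lists together, 56 of 85 tested genes were called (65.9%), 29 lower and 27 higher, with a median difference of 0.01. The lists were chosen with earlier results of these data known, and no list was tested as a set.

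Of 12 other genes of the promyelocyte, 6 were called lower, 3 higher and 3 were not called, with a median of -0.47. Ms4a3, a membrane protein of granulocyte and monocyte progenitors, read 12.28, 12.33 and 12.48 log2 units against 9.19, 8.58 and 9.23, and fell by 3.37 (standard error 0.19, limma adjusted p = 5.78e-05). Fcnb, the ficolin of the azurophil granule, fell by 2.02 (adjusted p = 0.000429), while its second probe differed by -0.86. Nkg7, a granule membrane protein of cytotoxic and myeloid cells, fell by 1.77 (adjusted p = 0.000391), and Cst7, which codes for the protease inhibitor cystatin F, fell by 1.51 (adjusted p = 0.000123). Srgn, the proteoglycan core that holds granule proteins, fell by 0.87, and Ctsc, the protease that activates the azurophil enzymes, fell by 0.64.

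Not all genes of this list fell. Bpi, an antibacterial protein of this granule in humans, was not well above background on any Ano1fl/fl array and was at least 3.63-fold higher on the Ctsk-Cre;Ano1fl/fl arrays (adjusted p = 5.89e-06), a bound against the dimmest signal that passed the background test on each array (the fitted difference was 0.93 with normexp, below that bound). Cd63, a membrane protein of azurophil granules and of lysosomes in general, rose by 0.46, and Clec11a rose by 0.88. The lysosomal enzyme gene Gusb differed by -0.08 and was not called.

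Of 18 other genes of the specific granule and the myelocyte, 3 were called lower, 7 higher and 8 were not called, with a median of 0.09. Hp (haptoglobin) rose by 1.77 (adjusted p = 0.000212), Orm1 (orosomucoid 1) by 1.47 (adjusted p = 5.51e-05), Wfdc21 by 1.25 (adjusted p = 0.000181) and Cd24a by 1.15 (adjusted p = 0.00548). These 4 were the only genes of the list past 2-fold, and each rose with its arrays apart. Ceacam1 fell by 0.80, Pglyrp1, a peptidoglycan binding protein, fell by 0.69 and Anxa1 fell by 0.43. Chil3 differed by -0.20, Lyz2 by 0.13 and Cd177 by 0.06, and these were not called.

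Of 26 genes of the gelatinase granule, secretory vesicles and the mature cell, 12 were called lower, 7 higher and 7 were not called, with a median of -0.07. Ly6g, the surface antigen used to sort mouse neutrophils, read 9.61, 9.62 and 9.80 log2 units against 7.84, 7.20 and 7.78, and fell by 2.07 (adjusted p = 0.000297). Cxcr2, the chemokine receptor of mature neutrophils, fell by 2.17 (adjusted p = 4.33e-05). Stfa1 fell by 2.30 (adjusted p = 0.00512), Stfa2 fell by 1.90 and Stfa2l1 fell by 1.89. These 3 stefin genes are near-identical copies whose probes may read each other's RNA. Mmp25, a membrane metalloproteinase of neutrophils, was at least 5.31-fold lower (adjusted p = 4.34e-05; fitted at -1.06 with normexp, below that bound).

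In the same list Mmp9 (gelatinase B, which osteoclasts make as well) rose by 4.36, Fpr1 by 2.89, Ccrl2 by 2.03 and Fpr2 by 1.71, the formyl peptide receptors being shared with macrophages. Mmp8, the neutrophil collagenase of the specific granule, was nonetheless counted in this list, and rose by 0.76 (adjusted p = 0.000604). S100a8 fell by 0.60 (adjusted p = 0.00107), while its partner S100a9 differed by 0.20 and Csf3r, the receptor of G-CSF, by -0.07, and neither was called.

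Of 13 transcription factors of granulopoiesis, 5 were called lower, 6 higher and 2 were not called. Cebpe, which is needed for specific granules, fell by 0.98 (adjusted p = 0.000457), Myb, a factor of progenitors, fell by 1.13 (adjusted p = 0.00856) and Cebpa, which starts the granulocyte program, fell by 0.54 (adjusted p = 0.014). Gfi1, which represses other fates in granulocyte precursors, differed by -0.26 (adjusted p = 0.307). Ets1 rose by 1.81 (adjusted p = 0.00015), Lmo4 by 1.16 and Cebpd by 1.08, and Spi1, which codes for PU.1, rose by 0.48 (adjusted p = 0.0223).

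Of 12 genes for processing and inhibition of these proteases, 9 were tested, 2 were called lower, 1 higher and 6 were not called. The inhibitor gene Serpina3g rose by 1.84 (adjusted p = 0.00561). Serpinb1a, the cytosolic inhibitor of elastase and cathepsin G, differed by -0.30 and Slpi by 0.10, with no call. Of 13 partner genes, 12 were tested, 2 called lower, 5 higher and 5 not called. The NADPH oxidase, which supplies peroxide to myeloperoxidase, had Cybb higher by 0.50 (adjusted p = 0.0399) and Rac2 higher by 1.07 (adjusted p = 0.000304), while Cyba (-0.01), Ncf1 (0.07) and Ncf4 (0.10) were not called. Slc22a17, a receptor for lipocalin 2, rose by 0.68. Itln1, which codes for intelectin 1, was at least 4.53-fold higher by its brighter probe (fitted at 1.17 with normexp, below that bound), while its second probe passed the background test on no array.

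**Figure D4:**
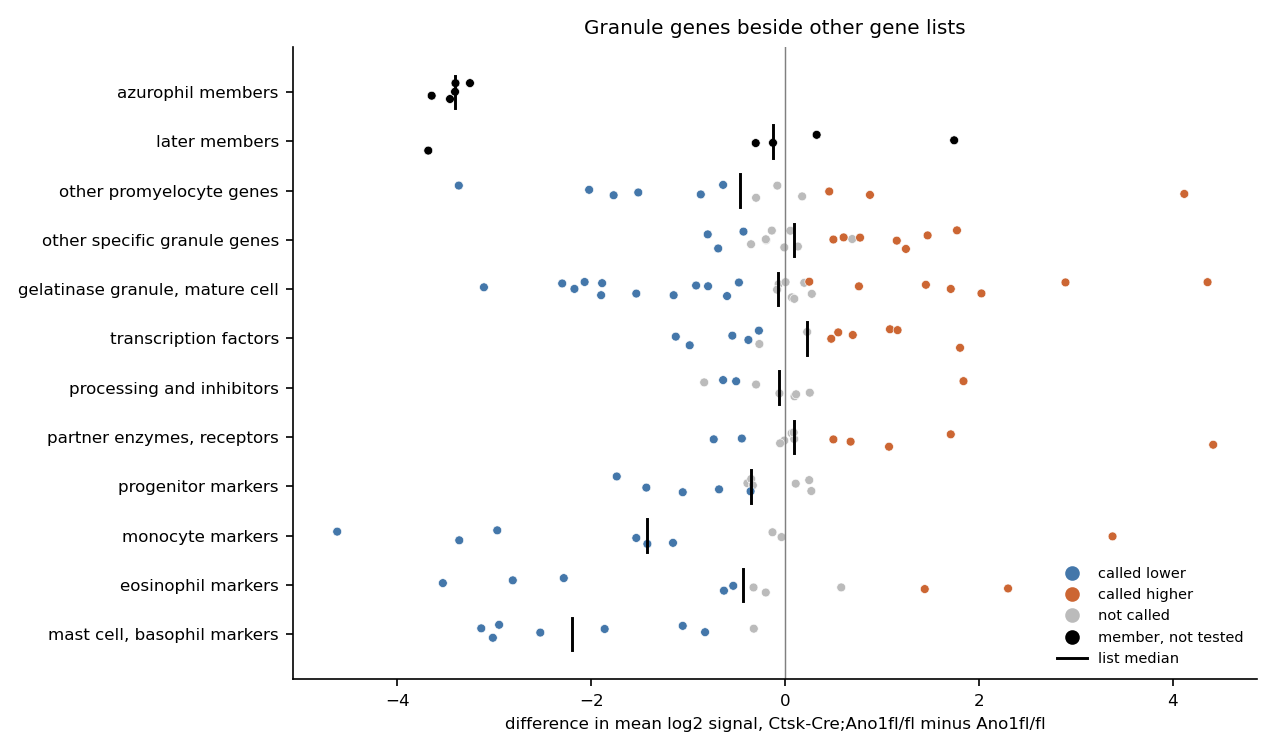
Difference in mean log2 signal (x axis) of each tested gene of 12 gene lists (y axis). Black points are members, which were not tested, blue points were called lower by limma at an adjusted p under 0.05, orange points higher and grey points neither, with a black bar at each list's median and points spread vertically for sight only. Genes below background in one group, such as Bpi, Mmp25, Itln1 and Epx, are drawn at the fitted value, which is no bound. The azurophil members have a median of -3.41, for which they were chosen, and the other promyelocyte genes have a median of -0.47, with Ms4a3 the lowest at -3.37.

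The genes whose 6 array values, each minus the control mean, lay nearest to the mean azurophil profile were sought over all 20645 genes by root mean square distance in log2 units. The members' own distances were 0.05 for Ctsg, 0.10 for Mpo and Prtn3, 0.15 for Elane and 0.18 for Prss57, small by construction since these genes make up the profile, and Retnlg stood at 0.33. Outside the members Ms4a3 was nearest (0.13), followed by Ccr2, the receptor that monocytes use to leave marrow (0.24). The others of the nearest 10 were a transcript named only by its array identifier, ENSMUST00000098571, and Fam187b, Lppr3, Coro2b, Mmp25, Htr7, Mtmr11 and AK085064, at 0.27 to 0.33. Of these 10, Fam187b, Coro2b, Mmp25, Htr7 and AK085064 were not well above background on any Ctsk-Cre;Ano1fl/fl array, so that only a bound is known for their level there.

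Some members share a chromosome. On chromosome 10 (mm9), the probes of Prtn3 and Elane lie 6.65 kb apart and that of Prss57 lies 100 kb from Prtn3. On chromosome 9, the probes of Camp and Ngp lie 575 kb apart and those of Ngp and Ltf 618 kb. Taking the 3 nearest gene names on each side of every member gave 54 genes that were no members, of which 39 were tested. Limma called 17 lower and 10 higher (69.2%, against 52.4% of all tested genes), and 5 were more than 2-fold lower (7.19% of all genes were, at the same adjusted p) and 4 more than 2-fold higher by the fitted value (9.88% were), of which Myh15 has a bound under 2-fold.

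Next to the azurophil genes, Lppr3 (now Plppr3), 18.2 kb from Prtn3, read 9.30, 9.69 and 9.77 log2 units against 6.93, 5.95 and 6.78. It fell by 3.04 by its brightest probe (adjusted p = 0.000344), with array 2 lowest, and the mean of its 2 probes differed by -1.94. Ptbp1 and Med16, which lie on either side of the Prtn3 and Elane pair, differed by -0.03 and 0.14 and were not called, and R3hdm4 fell by 0.77. Beside Mpo, the eosinophil peroxidase gene Epx, 62.0 kb away, was at least 3.73-fold lower (adjusted p = 0.00308; fitted at -0.85 with normexp, below that bound), Lpo, which codes for lactoperoxidase, fell by 0.53 (adjusted p = 0.0206, a call lost in 8 of 15 alternatives), Bzrap1 (now Tspoap1) fell by 2.05 (adjusted p = 0.000711; -0.75 over the mean of its 3 probes), Mks1 fell by 0.46 and Supt4a fell by 0.37.

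Beside Ctsg lie granule protease genes of other cells. Mcpt8, a basophil protease, fell by 2.53 (adjusted p = 0.0152, a call lost in 2 of 16 alternatives), with log2 signals of 10.87, 11.11 and 11.37 against 10.07, 7.68 and 8.02. Gzme, a granzyme, was not well above background on any Ano1fl/fl array and was at least 8.54-fold higher (adjusted p = 0.00146; fitted at 1.39 with normexp, below that bound). Beside Prss57, Fstl3, 0.7 kb away, rose by 0.81, while Palm fell by 0.75 and Misp fell by 0.94, the last a call lost in 6 of 15 alternatives.

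Among neighbours of later genes, Ccrl2, 15.0 kb from Ltf, rose by 2.03 and Lrrfip2 by 0.86. Beside Lcn2, 1110008P14Rik rose by 1.21, Slc25a25 by 0.68 and Ptges2 by 0.27, a call lost in 7 of 16 alternatives, while Naif1 fell by 0.28, a call lost in 2 of 16 alternatives. Beside Camp, Nme6 was called higher by 0.27 (adjusted p = 0.0339), which turned to -0.000131 with no normalization between arrays. Beside Ngp, Ptpn23 rose by 0.45, while Klhl18 fell by 0.35, Kif9 fell by 0.92 (-0.40 with normexp) and Setd2 fell by 0.28, the last a call lost in 6 of 16 alternatives. Beside Retnlg, C330027C09Rik (now Cip2a) fell by 1.85, Dzip3 fell by 0.65, and Myh15 was at least 1.87-fold higher (a call lost in 2 of 15 alternatives, and fitted at 0.38 with normexp, below that bound).

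**Figure D5:**
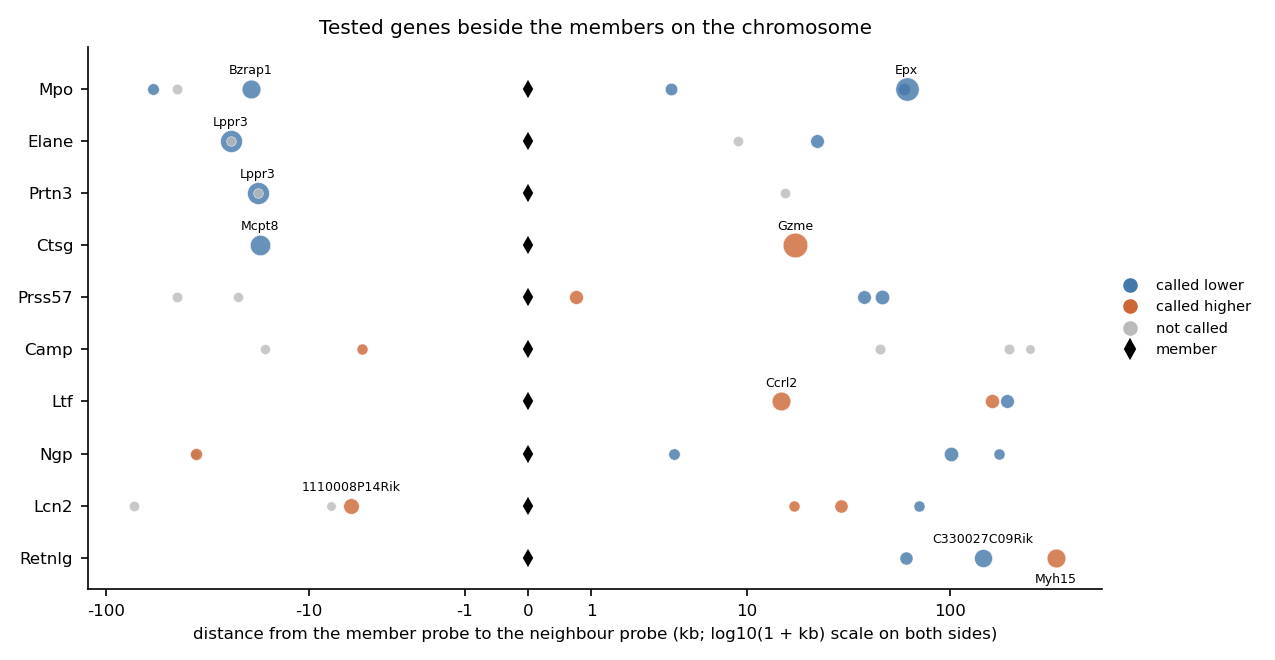
Tested genes beside each member on the chromosome, with the member (black diamond) at 0 on the x axis, the distance between probes in kb on a log10(1 + kb) scale on both sides, and 1 row per member. Blue circles were called lower, orange circles higher and grey circles neither. A larger circle is a larger fitted difference, which for Epx, Gzme and Myh15 is no bound, and the 9 genes called with a fitted difference past 2-fold are named.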

How the data were processed

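RNA of 6 cultures was measured on Agilent SurePrint G3 Mouse v2 arrays in 1 colour (Cy3). The deposited scanner files hold, per the file headers, the authors' Agilent Feature Extraction (version 10.7.1.1) processed signal, a linear intensity after background subtraction, and the authors' deposited value table holds the spot median intensity, equal to the scanner column on 62973 features. Control spots and outlier flags were left out, spots of a probe were averaged, 14 probes with no value on some array were dropped, and log2 values of the deposited intensities were quantile normalized, as the study's methods state. A gene was read by its brightest probe and tested if that probe passed Agilent's test of signal against background on every array of at least 1 group. limma (version 3.58.1, R 4.3.3) compared the groups of 3 arrays with Benjamini-Hochberg adjustment over 20645 genes, and a call is an adjusted p under 0.05. In a simulation on 20645 genes, 100 were changed by 1 log2 unit and 100 by 2, and limma found 64% and 97% of them. Far fewer genes changed there than were called here (52.4%), so these shares do not give the sensitivity in these data. Where only a bound holds, it is the brighter group's mean against the dimmest signal that passes that test.

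The members and the lists were chosen with earlier results of these data known, and no p is given for the members. Named genes were all members, up to 4 rises and 4 falls past 2-fold per list, markers of neutrophils, called neighbours and the 10 nearest profiles. Other genes are named to show what did not follow a list, and a few genes that the rule or lists hold are counted but not reported here by name. Probe positions are on mm9 and promoters on GRCm38.p6. Alternatives were scaling to the 75th percentile, no normalization, normexp, the deposited table, all probes, other filters, the methods' t-test, limma with trend and robust settings, the replicate number as a block, and leaving out each array. Pandas 2.3.3 and matplotlib 3.10.9 under Python 3.11.15 served for sequences and figures.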

Additional observations from a re-analysis of the deposited data

How the results depend on the processing

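The azurophil median kept its size under the 12 alternatives that gave it (-3.68 to -3.08), and leaving out 1 array each gave -3.59 to -3.08. The later median was -0.23 with scaling to the 75th percentile and -0.41 with no normalization between arrays, and -0.19 to -0.06 leaving out 1 array each. Those scalings also moved the median of all genes from -0.06 to -0.12 and -0.30, and the share of calls that were lower from 55.3% to 61.6% and 73.1%. With no normalization, 2565 genes were called higher against 4839, 2327 were called more than 2-fold lower against 1485, and 5 neighbours were called higher against 10. More than 2-fold lower were 664 with normexp and 825 with the deposited table, and more than 2-fold higher were 1307 with normexp and 1306 with probes well above background on all 6 arrays, against 2039. Nme6 turned to -0.000131 with no normalization. The cause of these shifts was not tested.

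Leaving out 1 array each, the fixed lists had 27 to 30 genes called lower and 24 to 28 higher, and the neighbours 14 to 16 and 8 to 10. Same-numbered arrays did not deviate together (r = 0.0044, -0.062 and -0.081 across genes), where arrays of different numbers gave -0.12 to 0.18. With 3 arrays per group these values cannot decide whether the numbers pair the mice. With the replicate block 9279 genes were called against 10826, and the azurophil median stayed at -3.41. The methods' t-test called 11541 genes unadjusted and 9674 after Benjamini-Hochberg. Prss34, Mcpt8 and Myh15 lost their call with no filter on dim probes (adjusted p = 0.0521, 0.0519 and 0.0523) and with the methods' t-test (0.0597, 0.0595 and 0.0597). With normexp the fitted differences of dim genes shrank, to 0.93 for Bpi, -1.06 for Mmp25, 1.17 for Itln1, -0.85 for Epx, 1.39 for Gzme and 0.38 for Myh15, below the bounds given for them. Among neighbours, some calls with a small margin were lost under the alternatives. Nme6 was no longer called in 8 of 16 alternatives, its change of sign included, Ptges2 in 7 of 16, Setd2 in 6 of 16, Misp in 6 of 15, Lpo in 8 of 15 and Naif1 in 2 of 16. Lpo lost its call without Ano1fl/fl array 2 (adjusted p = 0.0524) and without Ctsk-Cre;Ano1fl/fl array 1 or 2 (0.0613 and 0.0529), and Naif1 lost it without Ano1fl/fl array 2 or 3 (0.0548 and 0.0539). Nme6, Setd2, Ptges2 and Misp each lost it when one of at least 4 arrays was left out, 5 for Nme6 and Setd2. In those 5 the difference was 0.22 to 0.28 for Nme6 and -0.30 to -0.23 for Setd2, close to the values with all arrays. Fstl3, Ptpn23 and Slc25a25 lost it in 1 of 16, with no normalization, where Ptpn23 was at 0.20, Ptges2 at 0.04, Supt4a at -0.65 and Klhl18 at -0.58. The number of arrays, 3 per group, limits the precision.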

Other observations

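Genes of other granulocytes were read on the same arrays. Of all tested genes 52.4% were called, 29% lower and 23.4% higher. Of 10 eosinophil genes, 5 were called lower, 2 higher and 3 were not called (70% called). The granule genes Prg3 and Prg2, which code for the major basic proteins, changed by -2.81 (limma adjusted p = 0.000205) and -2.28 (adjusted p = 0.00166) (Prg3 was at -1.75 with normexp), while the receptor genes Il5ra and Ccr3 rose by 2.30 (adjusted p = 0.00028; 1.36 with normexp) and 1.44 (adjusted p = 0.000385). Of 8 tested mast cell and basophil genes, 7 were called lower and 0 higher (87.5% called). Their summed signal was 4247, 1289 and 1573 on the Ctsk-Cre;Ano1fl/fl arrays against 8244 to 10314 on the controls, so that array 1 was the highest there, and Ms4a2, Cpa3 and Prss34 changed by -3.13, -3.01 and -2.95. Ms4a2 was well above background on 1 of these 3 arrays and was at -1.49 with normexp, and Prss34 lost its call in 2 of 16 alternatives.

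Of 9 monocyte genes, 6 were called lower, 1 higher and 2 were not called (77.8% called, against 52.4% of all tested genes). Cx3cr1 fell by 4.62 (adjusted p = 5.48e-05), Ccr2 fell by 3.36 (adjusted p = 8.44e-05) and F13a1, the subunit of coagulation factor XIII in monocytes, fell by 2.97 (adjusted p = 0.000172), while Nr4a1 rose by 3.38 (adjusted p = 3.12e-05). Of 12 tested macrophage genes, 5 were called lower and 3 higher (66.7% called), with Marco at 3.01, Siglec1 at -2.12 and Mrc1 at -1.36. Among progenitor genes, Ly6a, Cd34 and Gata2 changed by -1.74, -1.43 and -1.06, and the mean of the 2 Cd34 probes by -0.84. The part of these cell types in the granule gene values was not tested.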
